A study of Mus musculus with 6 samples.

Results

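Potassium channel genes were taken as the symbols of the Kcn families in the gene table of the comparison between A2 SMA and Hb9 control motor neurons (MNs). A symbol was included when it consisted of Kcn, further letters and a closing number, which gave 92 genes of the 34433 gene symbols in the table. They were placed in 11 classes by family, of which 67 genes encode pore-forming subunits, 10 encode electrically silent subunits and 15 encode auxiliary subunits. Kcnrg and Kcne1l, whose names end in a letter, are not among the 92.

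Both groups are MNs derived from mouse embryonic stem cells (mESCs) of the FVB/N background, with 3 samples per genotype. Hb9 control cells carry intact mouse Smn and are labelled wildtype, and A2 SMA cells have the genotype SMN2+/+;mSmn-/-. Both lines also carry the human SMN2 transgene and eGFP under the control of the promoter of Hb9, and both received 1 µM retinoic acid and 1 µM Smoothened agonist for 5 days before GFP-positive cells were sorted. Each genotype is represented by 1 mESC line, so genotype and line cannot be told apart. The deposited table gives 1 FPKM value (read density scaled by transcript length and sequencing depth) for each gene and genotype, which Cuffdiff estimated over the 3 samples. The spread between samples cannot be computed from these values and the authors' own test columns were not used, so no difference carries an error or a test here. The number of reads behind each gene's value is not part of the table, and differences are described by their size alone.

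Potassium channels let potassium leave the cell and so set the resting potential, repolarize the action potential and limit the rate of firing. Voltage-gated Kv channels open on depolarization, calcium- and sodium-activated channels open when these ions enter, inward rectifiers hold the membrane near the potassium equilibrium potential, and K2P channels, whose subunits carry a tandem pair of pore domains, conduct a leak current. In spinal MNs, leak channels of the TASK type, the M-current of Kcnq channels and the afterhyperpolarization carried by small-conductance Kcnn channels are known to shape excitability. Auxiliary subunits such as the KChIP proteins and the Kv beta proteins alter the gating and surface level of the pores.

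Most potassium channel transcripts were present at low levels. The median over the 92 genes was 0.648 FPKM in the control and 0.301 FPKM in A2 SMA cells. At least 1 FPKM was reached by 38 genes in the Hb9 control and by 23 in A2 SMA cells, and at least 10 FPKM by 5 and 2 genes. Cuffdiff gave 38 of the 92 genes the status NOTEST, which marks too few aligned reads, and none of those exceeded 0.514 FPKM in either genotype. The housekeeping genes of a fixed list of 10 were all above 0 FPKM in both genotypes, with a lowest value of 7.40 FPKM.

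A log2 ratio of A2 SMA over Hb9 control was read for the 39 genes that reached 1 FPKM in at least 1 genotype and were above 0 FPKM in the other. Of these, 21 were at least 2-fold lower in A2 SMA MNs (53.8%), where the share over all 15784 genes past the same filter was 22.2%. Only 3 were at least 2-fold higher (7.69%, against 6.78% of all genes), and the other 15 lay between these limits. At least 4-fold lower levels in A2 SMA MNs were found for 17 of the 39 (43.6%, against 8.81% of all genes), and 0 of the 39 were 4-fold higher (against 1.77% of all genes). The median log2 ratio of the 39 genes was -1.39 (quartiles -3.27 and -0.05), and that of all genes was -0.29 (quartiles -0.89 and 0.19). The median gene thus lay below 0 itself, and relative to it 26 of the 39 genes were lower and 13 higher.

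The count depends on how low values were treated. Of the 39 genes, 16 reached 1 FPKM in Hb9 control MNs alone and 1, Kcnc4, in A2 SMA MNs alone. Over all 15784 genes past the filter these numbers were 1182 and 529. A gene that passes through 1 genotype is bound to be lower in the other. Among the 22 genes with at least 1 FPKM in both genotypes, 6 were at least 2-fold lower (27.3%, against 17.8% of all genes) and 3 at least 2-fold higher (13.6%, against 4.95%), and the median log2 ratio was -0.25. Between 1 and 5 FPKM in the higher genotype, 10 of 24 potassium channel genes were at least 2-fold lower (41.7%, against 30.4% of all genes) and 0 were higher (against 14.0% of all genes). From 5 to 100 FPKM, 11 of 15 were lower (73.3%, against 20.9%) and 3 were higher (20%, against 4.84%). That range is set by the higher genotype. At least 5 FPKM was reached by 13 genes in the control and 5 in A2 SMA MNs, 2 of them in A2 SMA MNs alone. These shares therefore depend on the limit in the same way as those at 1 FPKM. The genes nearest to the limit were Kcnb2 at 0.963 FPKM in its higher genotype, just outside, and Kcnh1 at 1.04 FPKM, just inside.

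**Figure D1:**
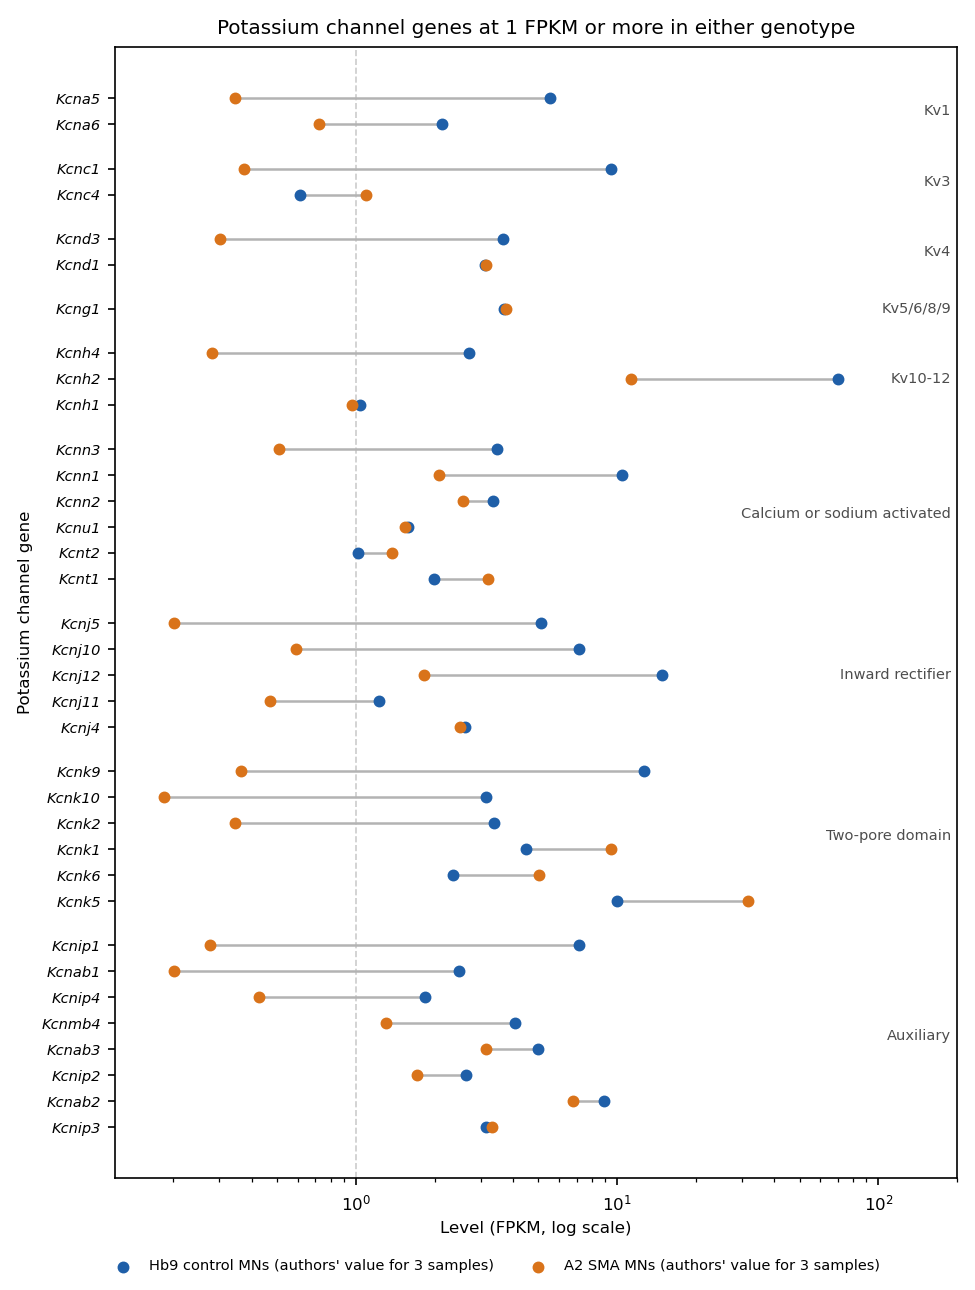
Level of potassium channel genes past the filter in Hb9 control MNs (blue) and A2 SMA MNs (orange), in FPKM on a log axis with a dashed line at 1 FPKM, grouped by channel class. Each point is the authors' value for 3 samples, so no error bars can be drawn, and Kcnh2 is the highest blue point at 69.9 FPKM and Kcnk5 the highest orange point at 31.6 FPKM.

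**Figure D2:**
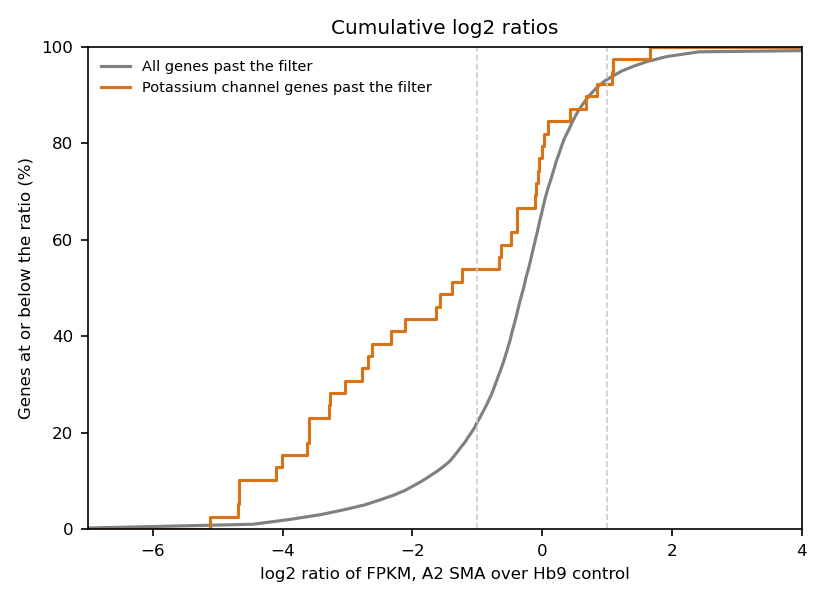
Share of genes (%) at or below each log2 ratio of A2 SMA over Hb9 control, for the 39 potassium channel genes (orange steps) and for all 15784 genes past the filter (grey). At the dashed line of -1 the orange steps stand at 53.8% and the grey line at 22.2%, and at +1 the curves lie close together.

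The order of the most abundant channel transcripts differed between the genotypes. In Hb9 control MNs it was led by Kcnh2, Kcnj12 and Kcnk9, and the first 5 genes together made up 44.8% of the summed level of all 92 genes. In A2 SMA MNs it was Kcnk5, Kcnh2, Kcnk1, Kcnab2 and Kcnk6, with 51.7% of the sum. Only Kcnh2 stood among the first 5 in both, and 3 of the first 5 in A2 SMA MNs encode K2P channels. The summed level was 269 FPKM in the control and 124 FPKM in A2 SMA cells with a log2 ratio of -1.12, and it was 199 and 113 FPKM without Kcnh2.

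RefSeq promoter sequences (300 bases around the start, build GRCm38.p6, on which no position from the expression table was placed) were available for 67 of the 92 genes. Those of the leading gene in each genotype and of Kcnc1, which had the lowest ratio among the genes with at least 5 FPKM and a sole promoter entry, are shown because they mark the extremes of the comparison. CG dinucleotides are in capitals, and each sequence is written 5′ to 3′ on the strand of the gene.
Kcnh2 (chr5:24329542-24329841, minus strand): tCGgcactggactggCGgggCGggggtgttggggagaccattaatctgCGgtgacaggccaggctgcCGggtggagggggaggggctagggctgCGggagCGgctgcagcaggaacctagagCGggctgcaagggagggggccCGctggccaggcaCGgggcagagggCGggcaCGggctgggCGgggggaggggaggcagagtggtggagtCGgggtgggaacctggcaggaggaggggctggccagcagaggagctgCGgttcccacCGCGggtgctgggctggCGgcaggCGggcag
Kcnk5 (chr14:20181733-20182032, minus strand): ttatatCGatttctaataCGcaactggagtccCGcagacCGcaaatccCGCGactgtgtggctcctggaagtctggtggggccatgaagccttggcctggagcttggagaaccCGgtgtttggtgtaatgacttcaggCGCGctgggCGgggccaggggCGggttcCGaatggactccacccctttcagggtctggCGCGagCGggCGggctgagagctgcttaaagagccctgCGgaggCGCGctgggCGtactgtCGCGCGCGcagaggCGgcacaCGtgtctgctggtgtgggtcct
Kcnc1 (chr7:46396218-46396517, plus strand): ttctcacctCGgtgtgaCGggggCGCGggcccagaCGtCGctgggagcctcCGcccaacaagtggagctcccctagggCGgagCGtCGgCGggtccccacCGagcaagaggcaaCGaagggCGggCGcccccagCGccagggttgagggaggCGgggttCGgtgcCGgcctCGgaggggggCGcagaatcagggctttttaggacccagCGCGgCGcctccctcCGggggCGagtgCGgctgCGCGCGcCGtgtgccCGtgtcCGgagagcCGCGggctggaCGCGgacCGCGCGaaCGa
The promoter of Kcnh2 held 19 CG dinucleotides, that of Kcnk5 held 26 and that of Kcnc1 held 41, against a median of 7 over 32851 promoters. The gene that was higher in A2 SMA MNs thus lay between the 2 lower ones. The median was 10 for the 27 promoters of genes at least 2-fold lower and 17 for the 11 promoters of genes between the limits, with quartiles of 6.5 and 20 and of 6.5 and 26 that overlapped widely. The TATA box letters TATAAA were found on either strand in 5 of 92 promoters of potassium channel genes (5.43%) and in 13.6% of all promoters. The homeodomain core TAATTA was found in 0 of 92 and in 5.29% of all, and the octamer ATGCAAAT of POU factors in 1 of 92 and in 1.74% of all. The 3 motifs were counted separately, and matches are letters in a window, not binding sites.

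K2P channels were the class in which large differences ran both ways. Of the 6 K2P genes past the filter, 3 were at least 2-fold lower and 3 at least 2-fold higher in A2 SMA MNs, with none between, against 22.2% lower and 6.78% higher over all genes. The 3 lower genes reached 1 FPKM in the control alone. Kcnk9 encodes TASK-3, an acid-sensitive leak channel, and was at 12.6 FPKM in the control and 0.364 FPKM in A2 SMA cells. Its log2 ratio of -5.12 (34.7-fold lower) was the lowest of the 39 genes, and was -3.32 with a pseudocount of 1 FPKM. Kcnk10 and Kcnk2, which encode the mechanically gated channels TREK-2 and TREK-1, were lower as well. Kcnk10 was at 3.16 FPKM in the control and 0.184 FPKM in A2 SMA cells (log2 ratio -4.11), and Kcnk2 was at 3.37 and 0.346 FPKM (-3.28). Kcnk3, which encodes TASK-1, did not reach the limit, with 0.898 and 0.0277 FPKM, and was singled out after its values were seen as the relative of Kcnk9.

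The 3 higher genes were Kcnk5, Kcnk1 and Kcnk6. Kcnk5, which encodes the alkaline-activated channel TASK-2, was at 9.97 FPKM in the control and 31.6 FPKM in A2 SMA cells, 3.16-fold higher (log2 ratio 1.66). Kcnk1 (TWIK-1) was at 4.50 and 9.50 FPKM (log2 ratio 1.08). Kcnk6 (TWIK-2) was at 2.34 and 5.00 FPKM (log2 ratio 1.09). With a pseudocount of 1 FPKM the log2 ratios of Kcnk1 and Kcnk6 were 0.93 and 0.84, under 2-fold. The class was the sole one with a higher sum in A2 SMA MNs, with 38.2 FPKM in the control and 48.1 FPKM in A2 SMA cells. Its share of the summed level of all potassium channel genes was 14.2% and 38.8%. Kcnk5 alone set this direction, since the sum without it was 28.3 FPKM in the control and 16.6 FPKM in A2 SMA cells.

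**Figure D3:**
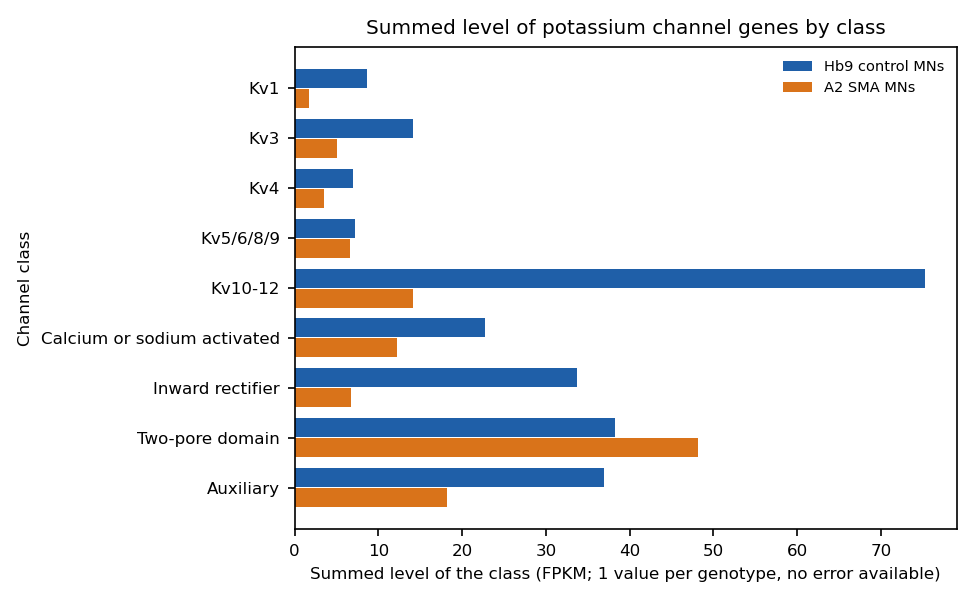
Summed FPKM of the genes of 9 channel classes in Hb9 control MNs (blue bars) and A2 SMA MNs (orange bars), 1 value per genotype without error. The orange bar is the longer one for K2P channels alone (labelled two-pore domain, 48.1 against 38.2 FPKM), and the widest gap is that of Kv10-12 (75.3 against 14.2 FPKM).

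The Kv10-12 class holds the EAG, ERG and ELK channels. Kcnh2 encodes ERG1, a channel known for the repolarization of heart muscle, and was the most abundant potassium channel transcript in Hb9 control MNs at 69.9 FPKM. In A2 SMA MNs it was at 11.3 FPKM, a log2 ratio of -2.62 (6.16-fold lower). Kcnh4, of the ELK branch, was at 2.71 and 0.282 FPKM (log2 ratio -3.26). Kcnh1 (EAG1) had similar values in both, 1.04 and 0.967 FPKM. The class therefore held lower genes of the ERG and ELK branches beside an EAG gene with a log2 ratio of -0.10. Kcnh2 made up most of the class sum, which without it was 5.42 FPKM in the control and 2.81 FPKM in A2 SMA cells.

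Among the Kv1, Kv3 and Kv4 channels, members of 1 family could differ from each other. Kcnc1 and Kcnc4 both encode Kv3 channels, which allow fast spiking. Kcnc1 was at 9.50 FPKM in the control and 0.372 FPKM in A2 SMA cells with a log2 ratio of -4.67 (25.5-fold lower). With a pseudocount of 1 FPKM its log2 ratio was -2.94. Kcnc4 had the higher value in A2 SMA MNs, with 0.610 and 1.09 FPKM (0.84), less than 2-fold apart. The Kv4 family, which carries the A-type current, held a lower gene beside one with nearly equal values. Kcnd3 was at 3.66 and 0.302 FPKM (log2 ratio -3.60) and Kcnd1 at 3.13 and 3.14 FPKM. Kcna5, a delayed rectifier of the Kv1 family, was at 5.55 FPKM in the control and 0.345 FPKM in A2 SMA cells (-4.01). Kcna6 was at 2.14 and 0.719 FPKM (-1.57).

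The silent subunits form no channel of their own and join Kv2 subunits. Only Kcng1 of the 10 passed the filter, at 3.68 FPKM in the control and 3.77 FPKM in A2 SMA cells. Its log2 ratio was 0.04, close to that of Kcnd1.

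Inward rectifiers were at least 2-fold lower in A2 SMA MNs for 4 of the 5 genes past the filter, against 22.2% of all genes, and 3 of the 5 reached 1 FPKM in the control alone. Kcnj12 encodes a strong inward rectifier and was at 14.9 FPKM in the control and 1.82 FPKM in A2 SMA cells (log2 ratio -3.03). Kcnj5, a subunit of the channels opened by G proteins, was at 5.10 and 0.201 FPKM (-4.67). Kcnj10, a rectifier best known from glia, was at 7.16 and 0.591 FPKM (-3.60). Kcnj11, the pore of the ATP-sensitive channel, was at 1.23 and 0.470 FPKM (-1.39). Kcnj4 was the exception, with 2.61 and 2.51 FPKM.

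Of the calcium- and sodium-activated channels past the filter, 2 of 6 were at least 2-fold lower (33.3%, against 22.2% of all genes). Of the 6, 1 reached 1 FPKM in the control alone. The small-conductance channel gene Kcnn1 was at 10.5 FPKM in the control and 2.08 FPKM in A2 SMA cells (log2 ratio -2.33). It is listed in 3 entries, and their sum gave -2.42. Kcnn3 was at 3.45 and 0.506 FPKM (-2.77). Kcnn2 was at 3.36 and 2.56 FPKM, a log2 ratio of -0.39, and the sum of its 2 entries gave -0.59. Kcnt1 and Kcnt2, which encode sodium-activated channels, had log2 ratios of 0.68 and 0.43, at 3.19 and 1.37 FPKM in A2 SMA MNs. Kcnu1, known from sperm, had 1.59 and 1.54 FPKM. Kcnma1, the pore of the large-conductance channel, stayed below 1 FPKM in both genotypes, at 0.326 and 0.588 FPKM.

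Auxiliary subunits were at least 2-fold lower in A2 SMA MNs for 4 of 8 genes past the filter (50%, against 22.2% of all genes), and 3 of the 8 reached 1 FPKM in the control alone. Kcnip1, a KChIP protein that binds Kv4 channels, was at 7.18 FPKM in the control and 0.278 FPKM in A2 SMA cells with a log2 ratio of -4.69 (25.9-fold lower). With a pseudocount of 1 FPKM the log2 ratio of Kcnip1 was -2.68. Kcnip4 had a log2 ratio of -2.11 and Kcnip2 of -0.63. Kcnip3, which also acts as a transcriptional repressor, was at 3.13 and 3.33 FPKM (0.09). The KChIP genes thus ranged from -4.69 to 0.09. Of the Kv beta genes, Kcnab1 was at 2.48 and 0.201 FPKM (-3.63), Kcnab2 at 8.87 and 6.75 FPKM (-0.39) and Kcnab3 at 4.97 and 3.14 FPKM (-0.66). Kcnab2 shares its entry with Gm16334. Kcnmb4, the neuronal beta subunit of the large-conductance channel, was at 4.08 and 1.31 FPKM (-1.64). Kcne1, Kcne2, Kcne3 and Kcne4 did not reach 1 FPKM.

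**Figure D4:**
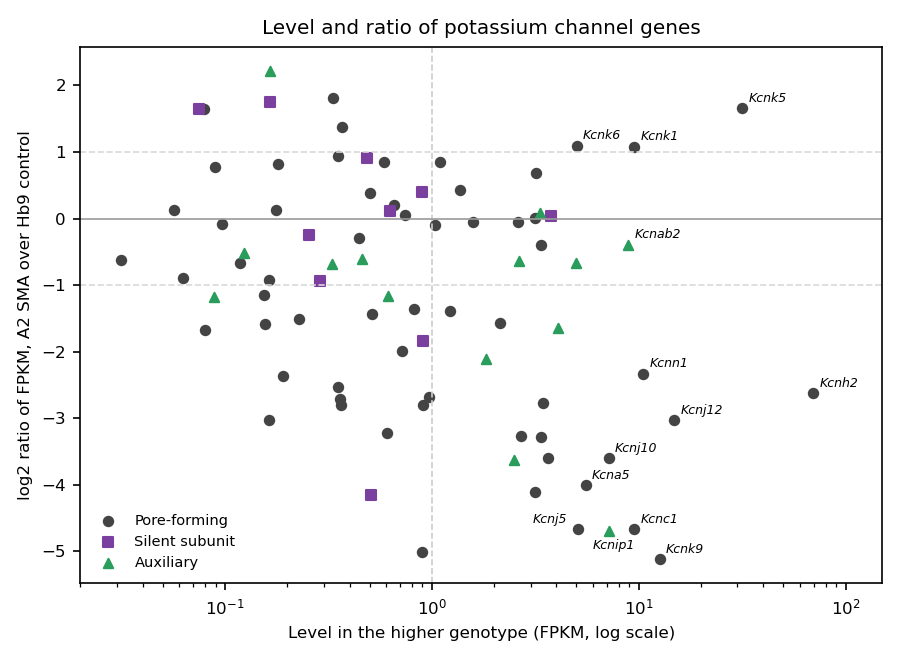
Log2 ratio of A2 SMA over Hb9 control against the level in the higher genotype (FPKM, log axis) for potassium channel genes above 0 FPKM in both genotypes, with pore-forming (circles), silent (squares) and auxiliary (triangles) subunits. Named genes reached at least 5 FPKM, and all of them except Kcnab2 lie outside the dashed lines at -1 and 1.

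The remaining 53 genes stayed under 1 FPKM in both genotypes. They were Kcna1, Kcna2, Kcna3, Kcna4, Kcna7 and Kcna10 of Kv1, Kcnb2, Kcnc2 and Kcnd2 of Kv2 to Kv4, Kcnq1, Kcnq3 and Kcnq5 of Kv7, and Kcnh3, Kcnh5, Kcnh6, Kcnh7 and Kcnh8 of Kv10-12. Among the silent subunits they were Kcnf1, Kcng2, Kcng3, Kcng4, Kcns1, Kcns2, Kcns3, Kcnv1 and Kcnv2, and among calcium-activated channels Kcnma1 and Kcnn4. The inward rectifiers were Kcnj1, Kcnj2, Kcnj3, Kcnj6, Kcnj8, Kcnj9, Kcnj13, Kcnj14, Kcnj15 and Kcnj16, and the K2P genes were Kcnk3, Kcnk4, Kcnk7, Kcnk12, Kcnk13, Kcnk15, Kcnk16 and Kcnk18. The auxiliary genes were Kcne1, Kcne2, Kcne3, Kcne4, Kcnmb1, Kcnmb2 and Kcnmb3. Kcna10 and Kcnj6 were listed at 0 FPKM in both genotypes, Kcnk15 at 0 FPKM in Hb9 control MNs and Kcnmb3 at 0 FPKM in A2 SMA MNs. Ratios at these levels rest on read numbers that the table does not give and were not read further.

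Potassium channel genes lie in clusters on several chromosomes, and 29 of the 92 lie within 500 kb of another. The positions are those of NCBI m37. Pairs were formed only of potassium channel genes with no other one of the 92 between them. Of these 17 pairs, only Kcnj11 and Kcnc1 on chromosome 7 (53352533 to 53693745) both passed the filter, and both were lower in A2 SMA MNs. On chromosome 6, Kcna5 and Kcna6 flank Kcna1, which had 0.0965 and 0.0907 FPKM. Kcna5 and Kcna6 also lie within 500 kb of each other, and both passed the filter and were lower in A2 SMA MNs. Kcnk5 on chromosome 14 (20959280 to 21001004) lies 81.0 kb from Kcnk16, which had 0.154 FPKM in the control and 0.0695 FPKM in A2 SMA cells. Kcnk9 lies on chromosome 15 from 72335962 to 72377059 and Kcnh2 on chromosome 5 from 23825407 to 23857422, with no other potassium channel gene within the limit. Kcnmb1 lies in the locus of Kcnip1 on chromosome 11, and the library kit does not mark strand, so reads of overlapping genes cannot be told apart.

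Partners of potassium channels outside the Kcn names were read from a separate list of 20 genes. Of the 13 past the filter, 8 were at least 2-fold lower in A2 SMA MNs (61.5%, against 22.2% of all genes) and none was 2-fold higher (against 6.78%). Of these 13, 2 reached 1 FPKM in the control alone. Dlg4, a scaffold that binds Kv1 channels, was at 138 FPKM in the control and 22.3 FPKM in A2 SMA cells (log2 ratio -2.63). Cntn2, which helps to place Kv1 channels along axons, was at 79.8 and 4.36 FPKM (-4.19), in an entry with the status FAIL, which marks an estimate that Cuffdiff did not complete. Vapa and Vapb, which anchor Kv2 clusters, had log2 ratios of 0.04 and -0.78. Of 5 hyperpolarization-activated and sodium leak channel genes past the filter, 3 of which reached 1 FPKM in the control alone, 4 were at least 2-fold lower (80%, against 22.2% of all genes), Hcn4 at 9.33 and 0.909 FPKM among them, while Hcn2 was at 5.38 and 5.42 FPKM.

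Pumps and cotransporters that move potassium were lower about as often as all genes. Of 14 genes, 3 were at least 2-fold lower (21.4%, against 22.2% of all genes) and 11 lay between the limits, with a median log2 ratio of -0.20. Of the 14, 1 reached 1 FPKM in the control alone. Slc12a5, the neuronal cotransporter of potassium and chloride, was at 7.63 and 1.55 FPKM (-2.30).

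Voltage-gated sodium and calcium channel genes were set beside the potassium channels. Of 7 sodium channel genes past the filter, 6 were at least 2-fold lower (85.7%), and of 19 calcium channel genes 12 were lower (63.2%) and 2 higher, against 22.2% lower and 6.78% higher over all genes. Of these, 3 sodium and 6 calcium channel genes reached 1 FPKM in the control alone. The median log2 ratios were -2.23 and -2.35, where that of potassium channels was -1.39. With 1 FPKM in both genotypes they were -2.01 and -0.99, where that of potassium channels was -0.25. The difference between these families was not tested.

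Marker genes of several cell types also differed between the genotypes. The targeted gene, Smn1, was at 137 FPKM in the control and 5.26 FPKM in A2 SMA cells. All 10 pan-neuronal markers in the table were at least 2-fold lower in A2 SMA MNs (against 22.2% of all genes). Their summed levels were 1317 and 139 FPKM, and 2 of them reached 1 FPKM in the control alone. All 10 pluripotency markers were at least 2-fold higher (against 6.78% of all genes), with 287 and 1876 FPKM. Entries with the status FAIL entered both sums. They were Stmn2 (242 and 78.0 FPKM) and Elavl3 in the first and Utf1 (59.8 and 357 FPKM), Esrrb and Tdgf1 in the second. Pdgfra, Col1a1 and Gata4 in the sums below had the same status. Of the 7 MN markers listed, 6 passed the filter, 2 of them through the control alone. At least 2-fold lower were 5 of the 6 (83.3%, against 22.2% of all genes). Mnx1, which encodes Hb9, was at 41.2 and 44.2 FPKM, but Chat was at 15.5 and 0.344 FPKM and Lhx3 at 27.6 and 0.348 FPKM, so these 2 markers were under 1 FPKM in the cells labelled as A2 SMA MNs. Isl1 was at 5.95 FPKM, Isl2, whose entry is shared with another symbol, at 1.15 FPKM and Prph at 11.3 FPKM in the same cells. Slc5a7 was under 1 FPKM in both. Summed glial markers were at 639 and 32.4 FPKM, and at 85.7 and 26.9 FPKM without Fabp7. Summed fibroblast markers were at 68.7 and 34.4 FPKM, endoderm markers at 87.5 and 38.4 FPKM and muscle markers at 19.8 and 14.6 FPKM. No marker was listed at 0 FPKM. The part of these cell types in the potassium channel differences was not tested, and fewer cells of a type and less RNA per cell cannot be told apart in sorted bulk samples.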

How the data were processed

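RNA of GFP-positive MNs, sorted from differentiated Hb9 control and A2 SMA mESCs (3 samples per genotype), was sequenced by the authors as single-end reads on an Illumina HiSeq instrument. Reads were checked with FastQC 0.10.1, trimmed with CutAdapt, mapped with TopHat 2.04 to NCBI m37 with Ensembl annotation, assembled with Cufflinks and compared with Cuffdiff. The deposited FPKM values are the authors' Cuffdiff estimates, 1 per gene and genotype over the 3 samples. The table also holds the authors' fold changes, test statistics, p-values and q-values, which were not used. The deposited status word served as a mark of low or failed estimates.

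For each symbol the entry with the highest FPKM was used (Python 3.11.15, numpy 2.4.6, pandas 2.3.3, matplotlib 3.10.9). Log2 ratios were formed without a pseudocount over genes that reached 1 FPKM in at least 1 genotype and were above 0 FPKM in the other, and were counted past 2-fold. Start positions count from 0 in the table, as gene lengths of GENCODE M21 showed, and were raised by 1. The counting was tested on simulated data. No test was run, since the deposited values hold no spread between samples and the authors' test columns were set aside. Sums without the most abundant gene of a class or list were added after seeing the data. By rule, values were given for genes with at least 5 FPKM, for the most abundant gene of a class with none, and for 4-fold differences above 1 FPKM. Other genes past the filter were added after their values were seen, and genes under 1 FPKM with values were chosen after these were seen. The genes, classes and lists were chosen with earlier results of these data known. Tubb3, Map2 and Slc18a3 were not analysed here. Some genes that entered the counts, medians and sums are not reported here by name or drawn singly.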

Additional observations from a re-analysis of the deposited data

How the results depend on the processing

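No paired analysis was possible because the table gives 1 value per genotype, and for the same reason no sample could be left out. Genes at least 2-fold lower in A2 SMA MNs numbered 21. They numbered 11 of 15 with a limit of 5 FPKM in either genotype, which most of the 15 met in the control alone. They numbered 6 of 22 with 1 FPKM in both genotypes, a limit chosen after seeing the data. Genes at least 2-fold higher numbered 3, and numbered 1 with a pseudocount of 1 FPKM, with the filter (2.56%, against 4.35% of all genes) or without it (1.09%, against 2.001%), 5 after scaling to the upper quartile (12.5%, against 11.6% of all genes), 5 at a limit of 1.5-fold (12.8%, against 12.6%) and 0 at 4-fold (against 1.77%). Under the other alternatives both counts stayed within 1.5 times. The median log2 ratio of -1.39 became -2.69 with the limit of 5 FPKM, -0.14 without a filter and with a pseudocount of 1 FPKM, and -0.25 with 1 FPKM in both genotypes. Centring on the median gene gave -1.10, with 20 genes lower (51.3%, against 16.5% of all genes) and 4 higher (10.3%, against 10.3%).

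The median of the K2P genes, -1.10 as the middle of 3 lower and 3 higher genes, turned to 1.09 with the limit of 5 FPKM and with 1 FPKM in both genotypes, and to 0.0071 without a filter and with a pseudocount of 1 FPKM. That of Kv4 turned from -1.80 to 0.0047 with 1 FPKM in both genotypes, which left Kcnd1 alone. All 14 genes with at least 5 FPKM and a difference past 2-fold kept their direction under each of the alternatives run on them. Filters and pseudocounts cannot reverse a ratio, and centring or scaling shifted it by less than 2-fold. This outcome was therefore largely fixed in advance. With a pseudocount of 1 FPKM the log2 ratios of Kcnk9, Kcnc1 and Kcnip1 shrank to -3.32, -2.94 and -2.68. Those of Kcnj5, Kcna5 and Kcnj10 shrank to -2.34, -2.28 and -2.36. The folds of the other genes stayed within 1.5 times. Leaving out the 4 genes with several entries gave 20 lower genes and 3 higher ones, an alternative chosen after seeing the data. The reads behind each gene's value are not in the table, which limits all values under 1 FPKM.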
